A study of Rattus norvegicus with 6 samples.

Results

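The core of the NF-κB pathway was examined in primary rat oligodendrocyte precursor cells (OPCs) treated with ZJU-37, a small-molecule inhibitor of the kinase RIPK1. It was taken as 10 genes, selected by name: the subunit genes Rela, Relb, Rel, Nfkb1 and Nfkb2, the inhibitor genes Nfkbia, Nfkbib and Nfkbie, and the IκB kinase (IKK) genes Ikbkb and Ikbkg. All 10 were found among the 32883 genes of the count table, and all 10 were among the 14670 genes with enough counts to be tested. NF-κB dimers are held in the cytoplasm by IκB proteins. Signals from the TNF receptor, the IL-1 receptor or Toll-like receptors pass through ubiquitin-bound adaptors, RIPK1 among them, to the IKK complex, which marks IκB for degradation and frees the dimer to enter the nucleus. Much of this control acts on protein, so a transcript level is not a measure of pathway activity. Several of the genes, Nfkbia above all, are themselves targets of NF-κB, which closes a feedback loop, and in the brain the pathway is best known in microglia and astrocytes.

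OPCs were cultured from the cerebral cortices of newborn Sprague Dawley rats (P0 in the labels), grown for 7 days in mixed culture, purified by shaking and replated. The cells carried no genetic change and received 5 µM ZJU-37 or the same volume of its solvent DMSO for 36 h according to the sample labels; the study's methods give another duration. Poly-A RNA of 3 libraries per group was sequenced. The libraries are called biological repeats in the methods but plate wells in a figure legend, so the p-values measure the spread between these libraries, which may be technical.

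Sequencing depth was 13935865 to 24097927 counts per library. Levels are given as CPM, counts scaled to the library total, on the TMM scale that also corrects for composition. A count of 3 equalled 0.124 to 0.215 CPM, with counting error alone considered. The markers of the labelled cell type were abundant. Ptprz1 and Olig1, the highest of the OPC list, had means of 1201 and 809 CPM in DMSO. Other cells were present. The myelin gene Mbp had 8108 CPM in DMSO, the microglial genes Csf1r and C1qa had 673 and 549 CPM, and the astrocyte gene Slc1a3 had 714 CPM. Of the endothelial and mural genes, Cdh5 had 14.2 CPM and Pdgfrb 6.15 CPM in DMSO, whereas Cldn5 had 0 counts in all 6 libraries. In such bulk RNA, fewer cells of a type and less RNA per cell cannot be told apart. Libraries with the same replicate number deviated together from their group means (r = 0.37, 0.30 and 0.32 across genes, which are not independent replicates), so values with the replicate number as a block are given where they change a call.

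Of the 10 genes, only Nfkbib fell with ZJU-37 in edgeR's quasi-likelihood test (Benjamini-Hochberg adjusted p under 0.05), to 37.0% of its DMSO level. None of the 10 rose: 0 were higher at an unadjusted p under 0.05 in edgeR, and 0 were called higher by DESeq2 or limma-voom. Of all tested genes, 5.58% were called lower and 9.43% higher by the same rule. With the replicate block, Nfkbib, Ikbkb and Relb were called lower, where 15.9% of all tested genes were called lower and 16.2% higher. The libraries of the 2 groups did not overlap for 4 genes, Nfkbib, Rel, Ikbkb and Ikbkg, all lower with ZJU-37. For Ikbkg the nearest libraries were at 21.10 CPM with ZJU-37 and 21.11 CPM in DMSO. Of all tested genes, 16.2% were lower and 19% higher without overlap. The log2 fold change was negative for 9 of the 10 genes, with a median of -0.22, against 7917 of the 14670 tested genes (54.0%) and a median of -0.03.

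**Figure D1:**
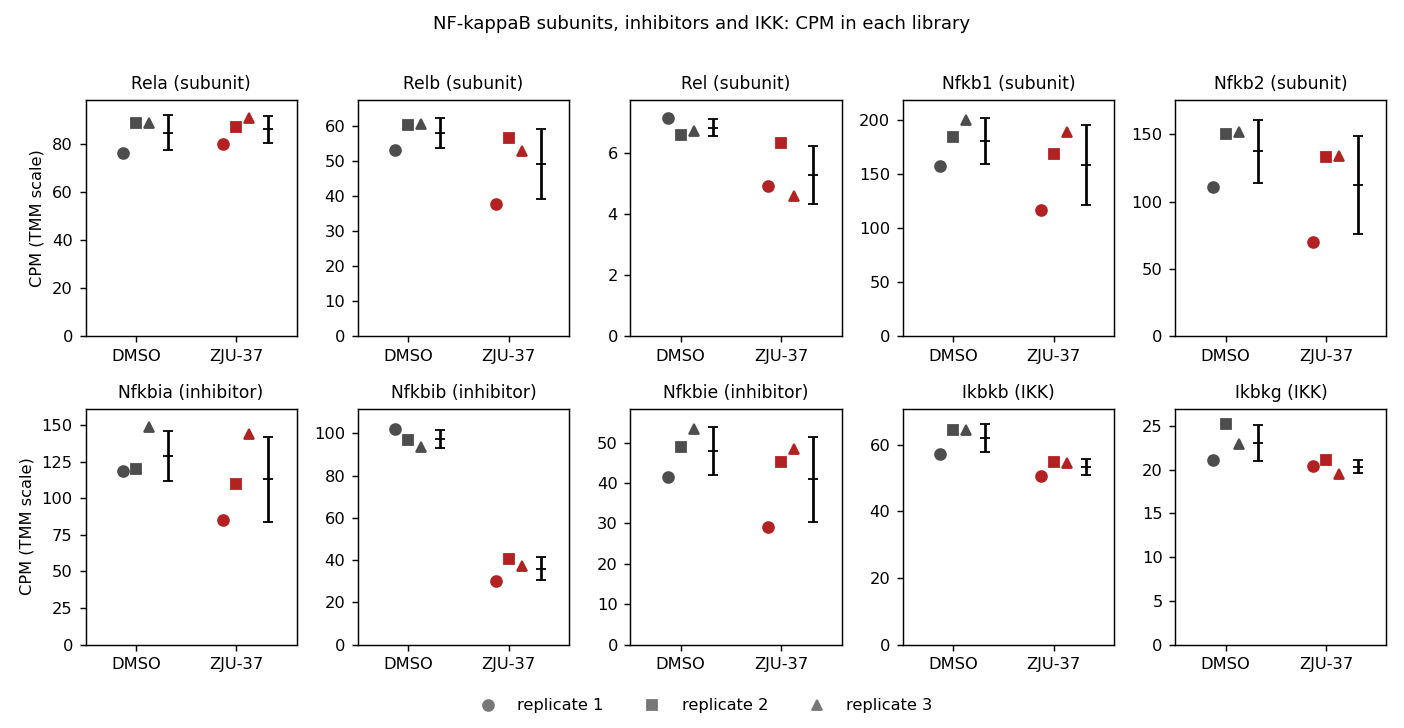
CPM on the TMM scale (vertical axes, each from 0) of the 10 genes in the 3 DMSO (grey) and 3 ZJU-37 (red) libraries, with symbols for replicate numbers and bars for mean ± SD. Nfkbib lies between 93.4 and 102 CPM in DMSO and between 30.0 and 40.4 CPM with ZJU-37, whereas for 6 of the other genes the groups overlap.

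RefSeq promoter windows of assembly GRCr8, 250 bases before to 50 after each annotated start, were found for 8 of the 10 genes, those other than Relb and Ikbkb. The kappaB consensus, the 10-base motif that NF-κB dimers bind, was searched on both strands. It was found in the windows of 6 genes (Rel, Nfkb1, Nfkb2, Nfkbia, Nfkbie and Ikbkg), and it was found in 7.51% of all 33469 windows. The windows of Rela and Nfkbib held no match. A match is a string of letters and not a measured site. The matches are shown with 10 bases on each side and with the match in capitals. They are printed because NF-κB is known to act on genes of its own pathway through such motifs, and each is written on the strand of its gene (the Nfkbia match reads on the other strand).
Nfkbia, chr6:78597084-78597113, minus strand, 31 bases before the start: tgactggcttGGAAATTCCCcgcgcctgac
Nfkb2, chr1:255108344-255108373, plus strand, 20 bases before the start: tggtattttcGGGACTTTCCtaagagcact
Nfkb1, chr2:226805440-226805469, minus strand, at base 4 of the transcript: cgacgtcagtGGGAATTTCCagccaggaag
Rel, chr14:101922001-101922030, minus strand, 82 bases before the start: cgtaggcagcGGGAAATCCCcccccgttcc
Nfkbie, chr9:22948017-22948046, minus strand, 164 bases before the start: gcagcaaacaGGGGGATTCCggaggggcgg
Ikbkg, chrX:157372881-157372910, plus strand, at base 7 of the transcript: agccggaagtGGGGTTTTCCactgctgaga
The Rel window held matches at 2 places, each read on both strands with a shift of 1 base, and the place nearer the start is shown.

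The 5 subunit genes encode the DNA-binding proteins. Rela encodes p65, the main activating subunit of the canonical dimer. Its levels were 76.2, 88.7 and 88.6 CPM in DMSO and 79.9, 87.0 and 90.7 CPM with ZJU-37, given here and below in the order of replicates 1, 2 and 3. The groups overlapped, and replicate 1 was the lowest library in each. The log2 fold change was 0.02 (SE 0.08, 95% interval -0.18 to 0.22, adjusted p = 0.891 by edgeR's quasi-likelihood test, adjusted by Benjamini-Hochberg, n = 3 per group).

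Nfkb1 encodes p105, the precursor of p50, the usual partner of p65. It stood at 158, 184 and 200 CPM in DMSO and at 117, 168 and 189 CPM with ZJU-37. ZJU-37 replicate 1 was the lowest of the 6 libraries and the other libraries of the groups overlapped. Its log2 fold change was -0.19 (SE 0.18, 95% interval -0.63 to 0.25, edgeR adjusted p = 0.570).

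Nfkb2 encodes p100, the precursor of p52, which is processed in the non-canonical arm. Its values were 111, 150 and 152 CPM in DMSO and 70.2, 133 and 134 CPM with ZJU-37. ZJU-37 replicate 1 again stood lowest, and ZJU-37 replicates 2 and 3 lay within the DMSO range. Its fitted log2 fold change was -0.29 (SE 0.26, 95% interval -0.92 to 0.34, edgeR adjusted p = 0.542), the widest interval of the 10 genes.

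Relb encodes the partner of p52. Its values were 53.0, 60.2 and 60.6 CPM in DMSO and 37.7, 56.5 and 52.8 CPM with ZJU-37. The groups overlapped through ZJU-37 replicate 2, although each ZJU-37 library was below the DMSO library of its number. The log2 fold change was -0.24 (SE 0.15, 95% interval -0.61 to 0.13) with an edgeR adjusted p of 0.372, and with the replicate block it was -0.25 (SE 0.08) with an adjusted p of 0.0402. That call was lost when both libraries of replicate 1 were left out of the blocked fit, which gave -0.14 and an adjusted p of 0.0992.

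Rel encodes c-Rel, a subunit best known in lymphocytes and myeloid cells. It was the least abundant of the 10, with 7.16, 6.61 and 6.74 CPM (98, 117 and 127 counts) in DMSO and 4.92, 6.35 and 4.59 CPM (91, 131 and 111 counts) with ZJU-37. The 3 ZJU-37 libraries were below the 3 DMSO libraries, by a narrow margin for ZJU-37 replicate 2. Its fitted log2 fold change was -0.37 (SE 0.17, 95% interval -0.78 to 0.04), which missed the threshold without the block (edgeR adjusted p = 0.216) and with it (adjusted p = 0.107).

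The 3 inhibitor genes encode the IκB proteins that hold NF-κB dimers inactive. Nfkbib encodes IκBβ, which binds dimers containing p65 or c-Rel and is degraded and resynthesized more slowly than IκBα. It was measured at 102, 96.6 and 93.4 CPM (1394, 1710 and 1760 counts) in DMSO and at 30.0, 40.4 and 37.4 CPM (554, 834 and 905 counts) with ZJU-37. The group means were 97.3 ± 4.24 and 35.9 ± 5.40 CPM (SD, n = 3 each), a 2.70-fold lower level. The highest ZJU-37 library was below the lowest DMSO library by far more than the spread within either group. The log2 fold change was -1.44 (SE 0.11, 95% interval -1.71 to -1.16, edgeR adjusted p = 5.35e-04). The differences in replicate pairs 1, 2 and 3 were -1.76, -1.26 and -1.32 on the log2 scale. The call held under all 14 alternatives run, with log2 fold changes no nearer to 0 than -1.28 and adjusted p between 7.76e-25 and 0.00447.

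Nfkbia encodes IκBα, the inhibitor that NF-κB induces in its own feedback. Its values were 119, 120 and 149 CPM in DMSO and 85.4, 110 and 144 CPM with ZJU-37. ZJU-37 replicate 1 was the lowest library, and ZJU-37 replicate 3 stood near the top of the DMSO range. For Nfkbia the log2 fold change was -0.19 (SE 0.20, 95% interval -0.67 to 0.28, edgeR adjusted p = 0.587). Its 250 bases upstream of the start (GRCr8, chr6:78597073-78597322, minus strand) are printed with the kappaB match in capitals, as the best known feedback promoter of the pathway.
Nfkbia upstream: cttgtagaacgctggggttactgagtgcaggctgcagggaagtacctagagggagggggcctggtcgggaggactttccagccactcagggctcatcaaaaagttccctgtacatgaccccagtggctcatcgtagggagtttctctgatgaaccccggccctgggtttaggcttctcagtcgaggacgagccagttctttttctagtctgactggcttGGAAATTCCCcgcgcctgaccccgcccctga

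Nfkbie encodes IκBε, another inducible inhibitor. Its values were 41.5, 48.9 and 53.4 CPM in DMSO and 29.0, 45.3 and 48.4 CPM with ZJU-37. As for Nfkb1, ZJU-37 replicate 1 was the lowest library and DMSO replicate 3 the highest, with overlap between the groups. For Nfkbie the log2 fold change was -0.23 (SE 0.20, 95% interval -0.71 to 0.26, edgeR adjusted p = 0.532).

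IKK is built from catalytic subunits and a scaffold. Ikbkb encodes IKKβ, the kinase that phosphorylates IκB in the canonical arm. It stood at 57.1, 64.4 and 64.3 CPM in DMSO and at 50.7, 55.0 and 54.5 CPM with ZJU-37, without overlap. Group means were 62.0 ± 4.19 and 53.4 ± 2.34 CPM (SD, n = 3 each). The log2 fold change was -0.21 (SE 0.07, 95% interval -0.39 to -0.04). It missed the threshold without the block (edgeR adjusted p = 0.105) and passed it with the block (adjusted p = 0.0185). In the blocked fit without both libraries of replicate 1 it was -0.23, with an adjusted p of 0.00683.

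Ikbkg encodes NEMO, the scaffold that ties the kinases to ubiquitin chains. Its values were 21.1, 25.2 and 22.9 CPM in DMSO and 20.4, 21.1 and 19.6 CPM with ZJU-37. The highest ZJU-37 library was just below the lowest DMSO library. Ikbkg had a log2 fold change of -0.18 (SE 0.09, 95% interval -0.41 to 0.04), with edgeR adjusted p = 0.264 and, with the block, 0.146. Chuk encodes IKKα, the other catalytic subunit. It lay between 59.7 and 76.8 CPM in DMSO and between 53.9 and 59.0 CPM with ZJU-37. Its log2 fold change was -0.22 (edgeR adjusted p = 0.236), and it lay between -0.29 and -0.10 with 1 library at a time left out.

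**Figure D2:**
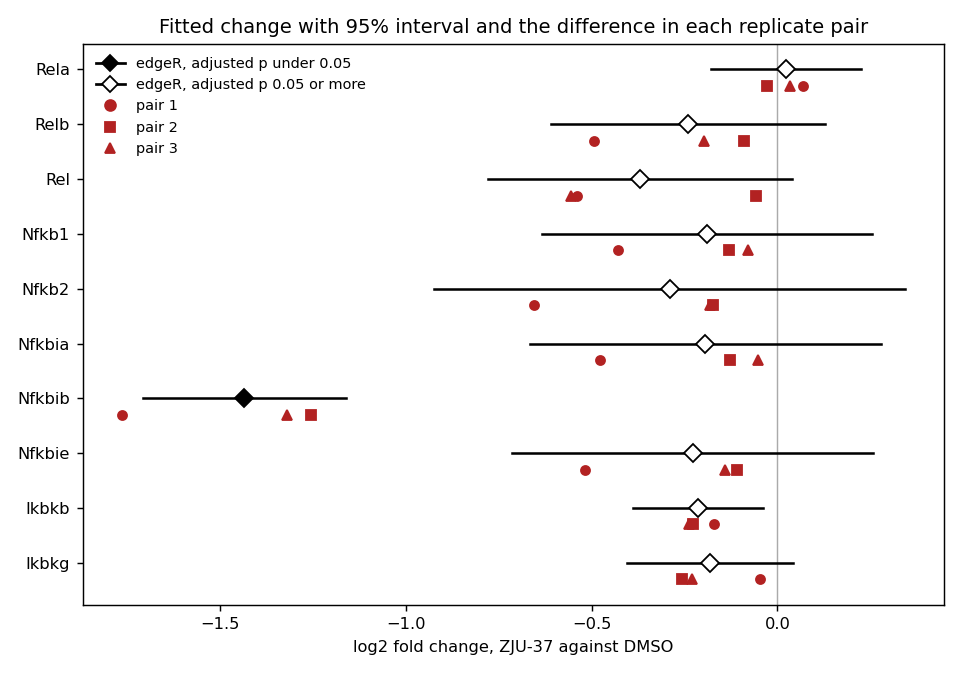
Fitted log2 fold change (horizontal axis, ZJU-37 against DMSO) of the 10 genes with its 95% interval (diamonds and lines, filled where the adjusted p was under 0.05) and the log2 CPM difference in each replicate pair (red symbols). Nfkbib alone is filled, at -1.44, and pair 1 is the lowest of the pairs for Relb, Nfkb1, Nfkb2, Nfkbia, Nfkbib and Nfkbie but not for Ikbkb or Ikbkg.

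ZJU-37 replicate 1 carried much of the variation among the genes. It was the lowest of the 6 libraries for 7 of the 10 genes, and for 26.3% of all tested genes. Without it, log2 fold changes moved close to 0 for Nfkb1 (0.001), Nfkb2 (-0.03), Nfkbia (-0.01), Nfkbie (-0.02) and Relb (-0.07), and the median of the 10 moved from -0.22 to -0.05. Nfkbib kept a log2 fold change of -1.30 with an edgeR adjusted p of 4.08e-04. In the blocked fit of replicates 2 and 3 alone, the log2 fold changes of Nfkb1, Nfkb2, Nfkbia and Nfkbie were -0.10, -0.17, -0.08 and -0.12, and Nfkb2 was called (adjusted p = 0.00717); in that fit 14.7% of all tested genes were called lower.

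The microglial markers moved in the same libraries. The summed CPM of 12 markers was 2592, 4490 and 3509 in DMSO and 1876, 3938 and 2949 with ZJU-37, so that ZJU-37 replicate 1 was lowest and each ZJU-37 library was below the DMSO library of its number. No marker of the 12 was called by edgeR without the block, by DESeq2 or by limma-voom, and 0 had an unadjusted p under 0.05. With the block edgeR called 6 lower, where 15.9% of all tested genes were called lower and 16.2% higher. Summed over the 5 subunit genes, the values were 405, 489 and 507 CPM in DMSO and 310, 451 and 471 CPM with ZJU-37. The part of microglial RNA in the subunit and inhibitor values was not tested. Astrocyte markers summed to 1106 to 1759 CPM in DMSO and 981 to 1454 CPM with ZJU-37, and neuron markers to 741 to 965 and 641 to 861 CPM. As for microglia, each ZJU-37 library was below the DMSO library of its number in both sums, and with the block 5 of 10 astrocyte markers and 3 of 8 neuron markers were called lower and 2 and 0 higher. For 10 genes of myelinating oligodendrocytes the sums were 11458 to 22772 and 4812 to 10049 CPM, without overlap. Endothelial and mural markers summed to at most 33.3 CPM in any library.

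Compared per length, as RPKM on the TMM scale, the inhibitors Nfkbia and Nfkbib stood first among the 10 genes in DMSO. The order of mean levels was Nfkbia (82.5 ± 11.0), Nfkbib (69.6 ± 3.03), Nfkb1 (46.7 ± 5.49), Nfkb2 (44.8 ± 7.60), Rela (34.6 ± 2.94), Nfkbie (29.9 ± 3.74), Relb (29.7 ± 2.17), Ikbkb (17.5 ± 1.18), Ikbkg (15.9 ± 1.41) and Rel (3.86 ± 0.16; SD, n = 3 each). Neighbours in this order overlapped between libraries from Nfkb1 down to Relb and between Ikbkb and Ikbkg. Nfkbia stood above Nfkbib, Nfkbib above Nfkb1, Relb above Ikbkb and Ikbkg above Rel without overlap.

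With ZJU-37, Nfkbib moved from rank 2 to rank 5, at 25.7 ± 3.86 RPKM, where its libraries overlapped those of Nfkbie and lay below those of Rela. Nfkbia (72.1 ± 18.7 RPKM) remained first and Rel (2.99 ± 0.53 RPKM) last. The ranks of Nfkbie, Relb, Ikbkb and Ikbkg were 6 to 9 in both groups.

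The ratio of inhibitor to subunit transcripts was lower with ZJU-37 when Nfkbib was counted. The 3 inhibitor genes summed to 175, 176 and 195 RPKM in DMSO and to 94.1, 127 and 149 RPKM with ZJU-37. Nfkbib made up 41.7%, 39.2% and 34.2% of that sum in DMSO and 22.8%, 22.7% and 18.0% with ZJU-37. The sum of inhibitors over the sum of subunits was 1.25, 1.05 and 1.13 in DMSO and 0.871, 0.821 and 0.934 with ZJU-37, without overlap. For Nfkbia and Nfkbie alone the ratio was 0.731, 0.639 and 0.746 in DMSO and 0.673, 0.634 and 0.766 with ZJU-37, which overlapped. These are ratios of transcript levels, and no test was made of sums over chosen genes. Ikbkb and Ikbkg, without Chuk, summed to 33.4 ± 2.48 RPKM in DMSO and 29.1 ± 0.856 RPKM with ZJU-37. Ikbkb made up 52.3% and 51.7% of that sum on average.

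**Figure D3:**
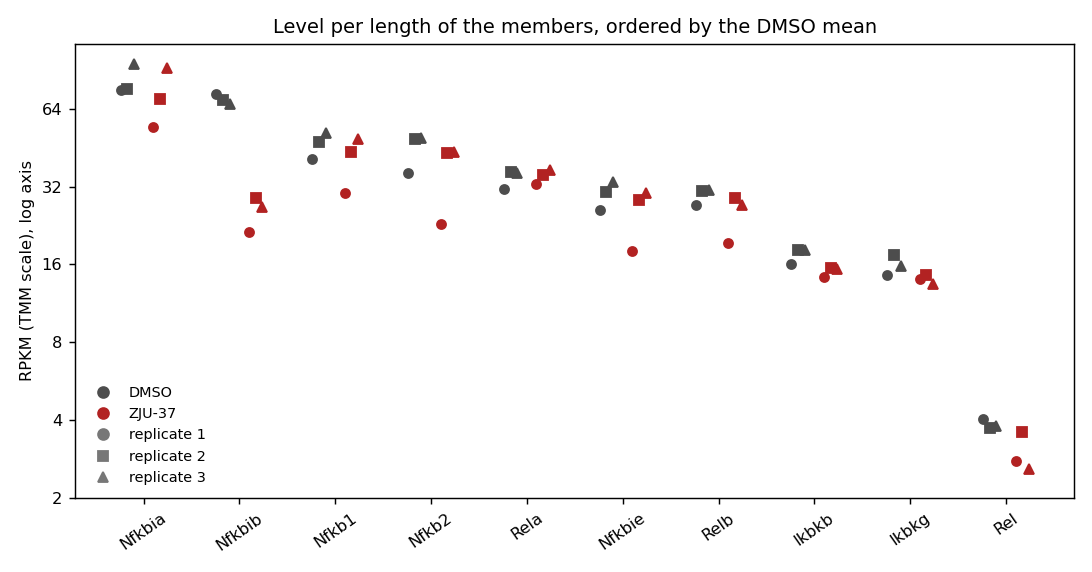
RPKM on the TMM scale (vertical log axis) of the 10 genes in each DMSO (grey) and ZJU-37 (red) library, ordered by the DMSO mean, with symbols for replicate numbers. Nfkbib stands second in DMSO at a mean of 69.6 RPKM and falls among Nfkbie and Relb with ZJU-37 at 25.7 RPKM.

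Nfkbib lies head to head with Sirt2, which encodes an NAD-dependent deacetylase that is abundant in oligodendrocytes and myelin. In the deposited table Nfkbib spans chr1:86941074-86948845 on the minus strand and Sirt2 spans chr1:86948918-86971952 on the plus strand, with 72 bases between them (genome build not given in the sources used here). Sirt2 stood at 2191, 1775 and 1469 CPM in DMSO and at 484, 585 and 392 CPM with ZJU-37, without overlap. Its log2 fold change was -1.89 (SE 0.20, 95% interval -2.37 to -1.42, edgeR adjusted p = 0.00162). In replicate pairs 1, 2 and 3 the Sirt2 difference was -2.18, -1.60 and -1.91 on the log2 scale, further from 0 than that of Nfkbib in each pair. The difference between the 2 genes was not tested.

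Between the RefSeq starts of the 2 genes in GRCr8 lie 84 bases (chr1:93181388-93181471), printed on the Sirt2 strand as the stretch that the divergent pair shares. Its GC content is 50.0%. The kappaB consensus was not found in it, nor in the window of either gene.
Nfkbib and Sirt2, between starts: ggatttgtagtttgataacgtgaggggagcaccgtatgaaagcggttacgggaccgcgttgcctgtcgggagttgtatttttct

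Strand use in the counting is not given in the sources used here, and without it reads from Sirt2 that reach into Nfkbib cannot be told from reads of Nfkbib. Counts of Nfkbib equalled 4.65%, 5.44% and 6.36% of those of Sirt2 in DMSO and 6.19%, 6.91% and 9.54% with ZJU-37. The part of Sirt2 reads in the Nfkbib count was not tested. In CPM, Nfkbib fell by 61.4 between the group means and Sirt2 fell by 1324. The sums of the 10 myelinating oligodendrocyte genes were 22772, 16294 and 11458 CPM in DMSO and 8695, 10049 and 4812 CPM with ZJU-37. Sirt2 had the same order of libraries as these sums within each group, whereas Nfkbib had it in DMSO but was lowest in ZJU-37 replicate 1. The part of myelinating cells in the Nfkbib and Sirt2 values was not tested.

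**Figure D4:**
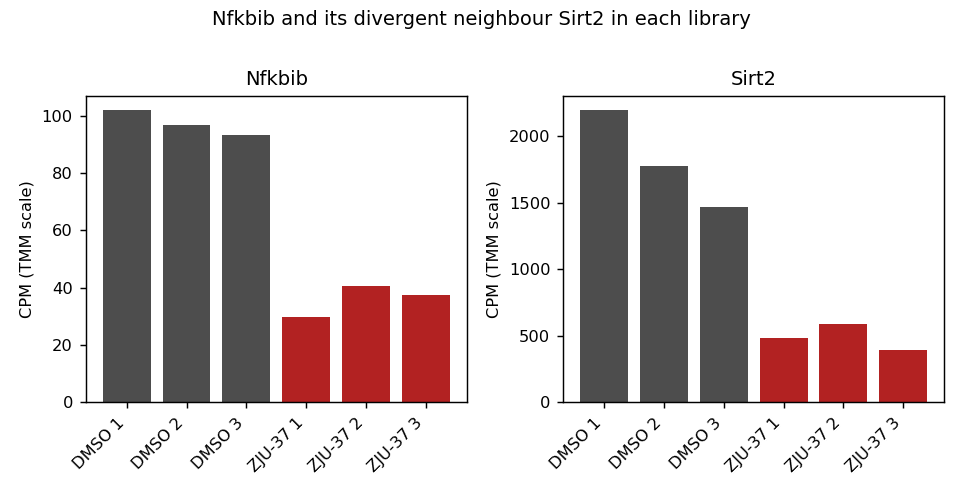
CPM on the TMM scale (vertical axes from 0) of Nfkbib (left) and its divergent neighbour Sirt2 (right) in each DMSO (grey) and ZJU-37 (red) library. All ZJU-37 bars are below all DMSO bars for both genes, at most 40.4 CPM for Nfkbib and 585 CPM for Sirt2.

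No gene overlapped any of the 10. Some neighbours within 5 kb were tested as well. Besides Sirt2, edgeR called Slc35b2, a Golgi transporter gene 1375 bases from Nfkbie, lower (log2 fold change -0.28, SE 0.05, adjusted p = 0.0134). Its adjusted p was between 0.0591 and 0.0603 without DMSO replicate 2, ZJU-37 replicate 2 or ZJU-37 replicate 3. Psd, which encodes an exchange factor for ARF6, ends 74 bases from Nfkb2 on the other strand and was at 28.9 to 44.9 CPM in DMSO and 47.8 to 62.3 CPM with ZJU-37. Its log2 fold change of 0.58 was opposite in sign to that of Nfkb2. It missed the threshold in edgeR without the block (adjusted p = 0.0776) and passed it with the block (1.53e-04) and in DESeq2 (0.0209). Further log2 fold changes were -0.19 for Sipa1 (beside Rela), -0.17 for Clptm1 and 0.08 for Clasrp (beside Relb) and -0.42 for Ccer2 (beside Nfkbib, under 1 CPM on average, and 0.07 without DMSO replicate 1), with edgeR adjusted p of at least 0.104. With the block Sipa1 and Clptm1 were called lower (adjusted p = 0.0244 and 0.0290).

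The genes most like Nfkbib across the 6 libraries, by root mean square difference in mean-centred log2 CPM among the 10300 tested genes averaging 10 CPM or more, were Prx (0.06), Ptpro (0.10) and Mfsd2a (0.11). Prx encodes periaxin, known from peripheral myelin, Ptpro a receptor-type tyrosine phosphatase and Mfsd2a a transporter of lysophospholipids. Their log2 fold changes were -1.33, -1.57 and -1.60, with edgeR adjusted p of 0.00213, 3.20e-04 and 6.13e-04. They were picked for likeness to Nfkbib in these same libraries, so a fall near its own was built into the choice. Most like Relb were Mocs2, Ccdc115 and Rnh1 (0.03, 0.03 and 0.04), and most like Ikbkb were Gga1, Edem2 and Atraid (0.02, 0.03 and 0.03).

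The rest of the pathway was read from 5 lists that hold none of the 10 genes, of which 81 genes were tested. Of these, 1 was called higher and 2 lower without the block, and 2 higher and 23 lower with it, beside the shares of all genes given before. The median log2 fold change was -0.20, and 65 of the 81 were negative. Without ZJU-37 replicate 1 the median was 0.02 and 39 were negative, and in the blocked fit of replicates 2 and 3 it was -0.09, with 10 called higher and 20 lower, where 18.3% of all genes tested in that fit were called higher and 14.7% lower.

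Among 23 receptors, adaptors, kinases and ubiquitin ligases upstream of IKK, Il1rap rose and Tab2 fell. Il1rap, the accessory chain of the IL-1 receptor, was at 98.2, 74.5 and 61.8 CPM in DMSO and 140, 146 and 137 CPM with ZJU-37 (log2 fold change 0.85, SE 0.16, edgeR adjusted p = 0.0154, and 0.0683 without DMSO replicate 2). Tab2, an adaptor that links the kinase TAK1 to ubiquitin chains, was at 169, 162 and 158 CPM in DMSO and 112, 121 and 121 CPM with ZJU-37 (log2 fold change -0.47, SE 0.06, edgeR adjusted p = 0.00295). For both genes the groups did not overlap. The list's median was -0.22, and it was -0.05 without ZJU-37 replicate 1 and -0.13 in the blocked fit of replicates 2 and 3. With the block, 1 gene of the list was called higher and 9 lower, beside 16.2% and 15.9% of all tested genes.

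Ripk1, which encodes the target of the compound, was at 45.9, 62.7 and 56.9 CPM in DMSO and 49.0, 60.0 and 57.9 CPM with ZJU-37 (log2 fold change 0.01, 95% interval -0.30 to 0.32, edgeR adjusted p = 0.970). The TNF receptor gene Tnfrsf1a had a log2 fold change of 0.07 (95% interval -0.21 to 0.35, edgeR adjusted p = 0.756), and it was called higher in the blocked fit of replicates 2 and 3 (0.14, adjusted p = 0.0335). The compound inhibits the kinase, so the level of Ripk1 RNA is no check of its action.

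Of 12 negative regulators, Cyld fell, from 31.5, 29.3 and 30.3 CPM in DMSO to 21.3, 24.4 and 23.7 CPM with ZJU-37. Cyld encodes a deubiquitinase that trims the chains on which IKK assembles. Its log2 fold change was -0.39 (SE 0.08, edgeR adjusted p = 0.0220), and the adjusted p was between 0.0601 and 0.0727 when DMSO replicate 1, 2 or 3 or ZJU-37 replicate 3 was left out. Tnfaip3, the A20 gene, had a log2 fold change of -0.24 (edgeR adjusted p = 0.539 without the block and 0.0480 with it). That call was lost in the blocked fit of replicates 2 and 3 (-0.15, adjusted p = 0.0975). The list's median was -0.24. Without ZJU-37 replicate 1 it was -0.04 with 7 of the 12 negative, and in the blocked fit of replicates 2 and 3 it was -0.16. With the block 0 genes were called higher and 5 lower, beside 16.2% and 15.9% of all tested genes.

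None of 7 tested genes of the non-canonical arm and none of 8 atypical IκB and IKK-related genes were called by edgeR without the block, by DESeq2 or by limma-voom, where 2 and 0 had an unadjusted p under 0.05. Exceptions were 1 gene of the non-canonical arm called by edgeR when scaled by library size alone and 1 called without ZJU-37 replicate 1. The medians of the lists were -0.05 and -0.20. Without ZJU-37 replicate 1 they were 0.17 and -0.09, and in the blocked fit of replicates 2 and 3 they were 0.02 and -0.12, so the sign of the non-canonical median rested on that replicate. With the block, Traf3, an adaptor that restrains the non-canonical arm, was called higher (log2 fold change 0.25, edgeR adjusted p = 0.0113), and Tnfrsf11a, Bcl3 and Ikbke were called lower; these 4 genes are named because of their values.

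Of 31 known NF-κB target genes, 0 were called by edgeR without the block, by DESeq2 or by limma-voom, and 0 had an unadjusted p under 0.05. Of these 31, 25 had a negative log2 fold change, with a median of -0.17. With the block 6 were called lower and 0 higher, beside 15.9% and 16.2% of all tested genes. Among the 6 was Icam1, the adhesion molecule that TNF induces. Icam1 was at 193, 281 and 300 CPM in DMSO and 123, 245 and 239 CPM with ZJU-37 (log2 fold change -0.35, SE 0.29, edgeR adjusted p = 0.504 without the block and 0.0126 with it). With 1 library at a time left out, the log2 fold change of Icam1 lay between -0.52 and -0.08. Without ZJU-37 replicate 1, 10 of the 31 were negative and the median was 0.08, with 1 gene called, so the sign of the list's median rested on that library in the fit without the block. In the blocked fit of replicates 2 and 3 it was -0.01, with 5 genes called higher and 6 lower, near the shares of all genes in that fit (18.3% and 14.7%). Among 10 OPC markers outside the pathway, edgeR called 4 higher and 5 lower, with a median log2 fold change of -0.34. Of these Pdgfra, the receptor that marks OPCs, rose from 394 ± 49.2 to 843 ± 249 CPM (SD, n = 3 each; log2 fold change 1.10, SE 0.21, edgeR adjusted p = 0.0182), with an adjusted p of 0.0775 without DMSO replicate 2 and 0.0693 without DMSO replicate 3.

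**Figure D5:**
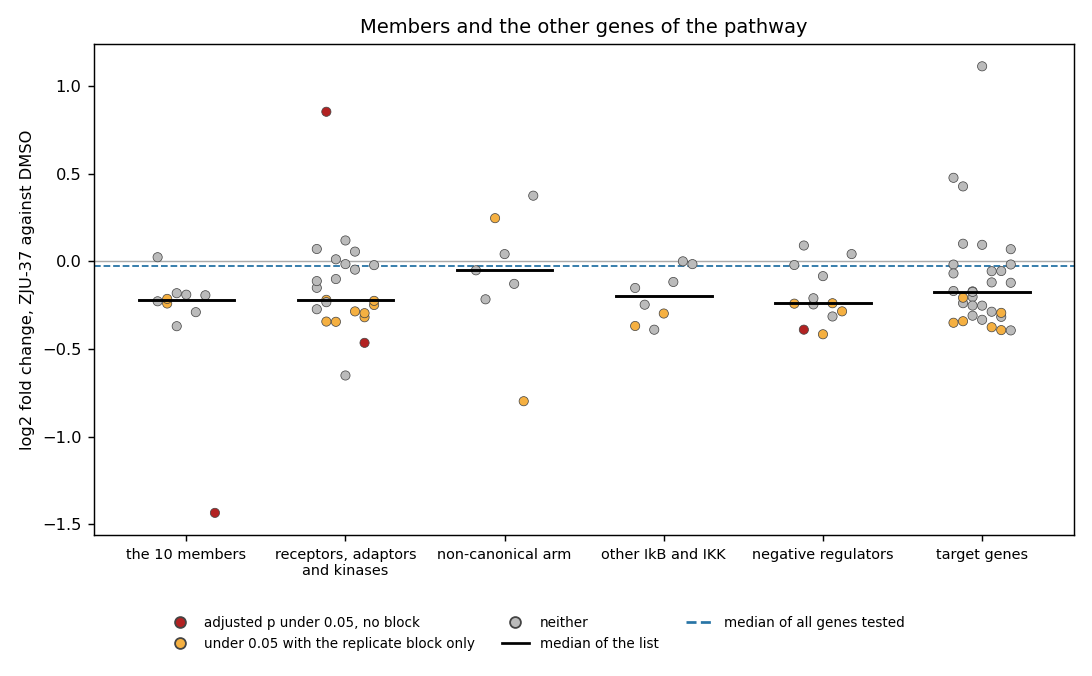
Log2 fold change (vertical axis, ZJU-37 against DMSO) of the 10 genes and of the genes of 5 pathway lists (points), coloured by whether the adjusted p was under 0.05 without the replicate block (red), with it only (orange) or in neither fit (grey). Black lines are list medians, between -0.24 and -0.05, and the dashed line is the median of all tested genes, -0.03; Nfkbib lies apart at -1.44.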

How the data were processed

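RNA-seq of 3 DMSO and 3 ZJU-37 libraries was used. The authors deposited raw counts per gene, made with featureCounts, and FPKM values that they computed from those counts and the gene length. The submitters' processing notes name HISAT2 2.0.5, StringTie 1.3.3b and featureCounts 1.5.0, and the genome build is not given in the sources used here. The table's columns of the authors' DESeq2 comparison (fold change and p-value) were not used. Samples were grouped by their treatment label. Counts were filtered with filterByExpr, TMM-normalized and tested with edgeR 4.0.16 (robust glmQLFit, glmQLFTest) in R 4.3.3, with p-values adjusted by Benjamini-Hochberg over 14670 genes and called under 0.05. Standard errors were computed from each fold change (log2) and the F value of its test. RPKM used the gene length in the table.

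Alternatives were DESeq2 1.42.0, limma-voom (limma 3.58.1), other normalizations and count filters, the replicate block and leaving out each library. The blocked fit without replicate 1 was added after seeing the data. Same-numbered libraries, paired by the replicate numbers in the labels, correlated in their deviations from the group means in all 3 pairs. The scripts were tested on simulated data.

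The 10 genes and the gene lists were chosen with earlier results of these data known. Named are the 10 genes, list genes past the threshold, Ripk1, Chuk, Tnfrsf1a, Tnfaip3, Icam1 and Pdgfra, tested genes within 5 kb, the 3 genes most like each called gene, and the 2 most abundant markers of a list where it is described. Some items that this rule covers are not reported here. Of the 83 listed pathway genes, 82 were in the table. Depth was 13935865 to 24097927 counts.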

Additional observations from a re-analysis of the deposited data

How the results depend on the processing

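The replicate block moved the number of called genes from 2201 to 4705, of called NF-κB subunit, inhibitor and IKK genes from 1 to 3, and of called genes in the pathway lists from 3 to 25. The blocked fit without both libraries of replicate 1, added after seeing the data, gave 4885, 3 and 30. Leaving out 1 library at a time gave between 1306 (without DMSO replicate 2) and 1927 called genes, 1 called gene of the 10 each time, and between 1 (without DMSO replicate 2) and 5 (without ZJU-37 replicate 1) in the pathway lists; without ZJU-37 replicate 3 the count of called genes was 1351. Nfkbib stayed called without each library, with a log2 fold change no nearer to 0 than -1.30. Over 35 single genes and their alternatives, 458 values stayed on their side of the threshold, 10 lost their call and 22 gained one, and no called gene changed sign. The causes were not tested. Levels near 3 counts, 0.124 to 0.215 CPM, are not resolved at this depth.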
